A study of Mus musculus with 12 samples.

Results

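The heat shock proteins and their transcription factor Hsf1 were followed after repeated ozone in mouse alveolar macrophages, which live in the air sacs and clear what is inhaled. The 10 genes were taken by symbol: Hsf1, Hspa1a, Hspa1b, Hspa8, Hsph1, Hsp90aa1, Hspb1, Dnajb1, Hspd1 and Hspe1. All 10 were found among the 55291 rows of the expression table, and all 10 had reads in all 12 mice and were among the 19633 genes tested. The cells came from female C57BL/6NJ mice of 8 to 11 weeks that had breathed 0.8 ppm ozone or filtered air for 4 h on each of 4 days in a row. Lungs were taken 3 days after the last exposure, and the macrophages were isolated by flow sorting. Each group held 6 mice, 3 in each of 2 flow-sort batches, and no mouse carried a genetic change. The study's title places the comparison in pulmonary tolerance to ozone, which was not measured in these data.

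Heat shock proteins are chaperones, which bind unfolded or newly made proteins and keep them from clumping. In a cell without stress, HSF1 is held inactive by chaperones. When misfolded proteins take those chaperones up, HSF1 assembles into its active form, binds heat shock elements in the promoters of chaperone genes and raises their transcription. Because its activity is set on the protein, the level of Hsf1 mRNA need not follow that activity. Oxidants such as ozone can damage proteins, and alveolar macrophages meet inhaled oxidants directly.

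The values are log2 expression after variance stabilization, and the filtered-air mean of each gene is 0. The level of a gene compared with another gene was therefore not kept, and differences are compressed for genes with few reads. Relative sequencing depth, read from the size of the lowest steps in the values, lay between 0.869 and 1.21 across mice, and total reads per mouse are not known. The RNA integrity number averaged 9.48 ± 0.172 in the 6 ozone mice (SD) and 9.42 ± 0.293 in the 6 controls, with a two-sided exact permutation p of 0.747. All 11 markers of alveolar macrophages on the list used had reads in all 12 mice, as did the listed markers of T and NK cells, B cells, epithelium and endothelium. Of the 11, 4 were called in limma (36.4%, against 4.25% of all genes): Chil3 (0.25) and Car4 (0.32) rose, and Krt79 (-0.35) and Ear1 (-0.28) fell. Listed B cell markers were lower in 6 of 6 genes, with Iglc2 called (-0.25); the list's mean ran from -0.31 to -0.14 after ozone and from -0.19 to 0.31 in controls. Of 8 epithelial markers Epcam was called (-0.55), with no overlap of the groups; the list's mean lay between -0.20 and 0.051 after ozone and between -0.21 and 0.29 in controls. The other 6 tested lists of other cell types held 0 calls in limma, with 5 genes at an unadjusted p under 0.05. The part of these markers in the results was not tested. Filtered-air mouse 4 had the lowest RNA integrity number, 8.9. Its means lay above the group's median in 8 of 8 lists of other cell types, as did those of filtered-air mouse 5 and ozone mouse 6. In sorted bulk RNA, fewer cells of a type and less RNA per cell cannot be told apart.

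The promoters were searched for the letters that HSF1 is known to bind. A heat shock element is a row of 5-base units with GAA in the middle, each turned the opposite way to the one before. RefSeq promoter windows of GRCm38.p6, from 250 bases before to 50 after a gene's start, were found for 7 of the 10 genes and not for Hsf1, Hspa8 and Hsp90aa1. A run of 3 such units, on either strand, stood in the windows of 3 of the 7 genes, Hspd1, Hspe1 and Hsph1, and in those of 0.662% of all 27025 genes (0.603% of all 32851 windows). A run of 2 units, written GAANNTTC or TTCNNGAA and also contained in every run of 3, stood in 6 of the 7 genes and in 17% of all genes (15.1% of all windows). Dnajb1 had neither in its windows. Only exact GAA or TTC units were counted, so runs with an imperfect unit were not sought in any gene. All runs of 3 units, and the runs of 2 units in the genes without a run of 3, are printed 5′ to 3′ on the strand of the gene, with the units in capitals, because they show which genes share a site: the neighbours Hspa1a and Hspa1b carry the same stretch, and windows of Hspd1 and Hspe1, on opposite strands, hold the same site.
Hspa1a, chr17:34972228-34972285, minus strand: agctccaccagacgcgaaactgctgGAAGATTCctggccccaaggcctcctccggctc
Hspa1b, chr17:34959310-34959367, minus strand: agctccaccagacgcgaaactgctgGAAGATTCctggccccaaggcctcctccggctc
Hspb1, chr5:135887777-135887854, plus strand: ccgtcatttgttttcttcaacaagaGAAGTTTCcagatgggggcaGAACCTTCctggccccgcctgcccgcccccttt
Hspe1, chr1:55088053-55088082, plus strand: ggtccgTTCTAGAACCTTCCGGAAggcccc
Hspd1, chr1:55088053-55088082, minus strand: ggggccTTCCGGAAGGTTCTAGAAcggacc
Hsph1, chr5:149636280-149636308, minus strand: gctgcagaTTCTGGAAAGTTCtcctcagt

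The printed stretches of Hspa1a and Hspa1b are identical, and their whole windows share 296 of 300 bases. Counting -1 as the last base before the start, their unit pair lies at -104 to -97 in both, and a CCAAT box, found in 37.4% of all windows on either strand, at -67 to -63. The site shared by Hspd1 and Hspe1 begins at -89 and ends at -72 of Hspe1. It lies inside the annotated Hspd1 gene, in an exon of 1 Hspd1 transcript, and was found in 1 of the 2 Hspd1 windows, at -144 to -127. The printed site of Hsph1 lies just after the start, within annotated exons of 4 Hsph1 transcripts. A further run of 2 units in Hsph1, not printed, lies before the start, at -33 to -26 in the first of its windows and -54 to -47 in the other. A match of letters is a description and does not show that HSF1 was bound in these cells.

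None of the 10 genes passed the test between ozone and filtered air. In limma, with flow-sort batch as a covariate and Benjamini-Hochberg adjustment over all genes tested, 0 of 10 had an adjusted p under 0.05, against 4.25% of all genes. At an unadjusted p under 0.05 there were 2 of 10, Hsph1 higher and Hspb1 lower, against 16.7% of all genes. The groups overlapped in every one of the 10, whereas they did not overlap in 3.53% of all genes. The differences ran from -0.10 for Hspb1 to 0.23 for Hsph1, with 7 above 0 and 3 below, and their median was 0.026, against -0.0033 over all genes tested. The 95% intervals of 8 of the 10 differences included 0.

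**Figure D1:**
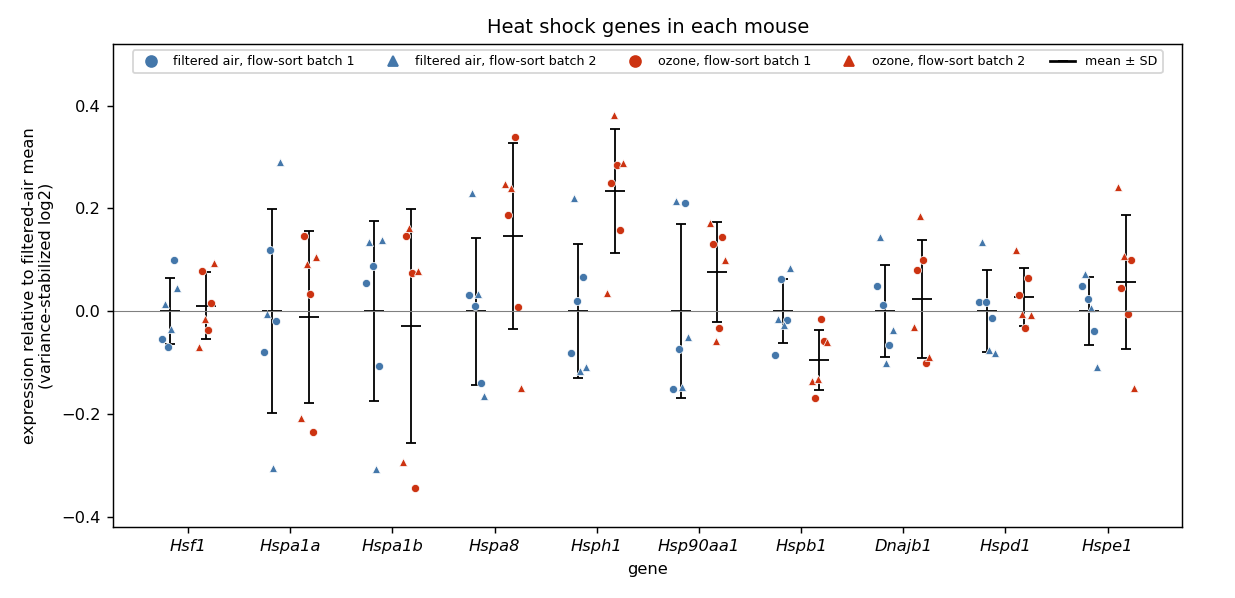
Expression of the 10 genes in each mouse, in variance-stabilized log2 units relative to the filtered-air mean (vertical axis), by gene; blue is filtered air, red is ozone, circles and triangles are flow-sort batches 1 and 2, and bars are mean ± SD of 6 mice. The groups overlap in every gene, and 3 mice lie near -0.3 in Hspa1b.

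The transcription factor itself showed the smallest difference. Hsf1 (chr15:76477422-76501913, GRCm38, plus strand) ranged from -0.07 to 0.09 after ozone, with a median of -0.00042. In filtered air it ranged from -0.07 to 0.10, with a median of -0.011. The groups covered nearly the same range, and 3 of 6 ozone mice lay above the filtered-air mean. The difference was 0.011 (SE 0.0423, limma adjusted p = 0.943), with a 95% interval from -0.080 to 0.10. It was 0.026 in flow-sort batch 1 and -0.0049 in batch 2. The interval covers changes of Hsf1 mRNA of either sign on this scale. The size of change that could have been called with 6 mice a group was not computed.

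Hspa1a and Hspa1b encode the stress-inducible HSP70, the classical readout of HSF1 activity. The genes are neighbours on chromosome 17 (chr17:34969190-34972156 and chr17:34956436-34959238, minus strand, with 9951 bases between them). Hspa1a ranged from -0.24 to 0.15 after ozone, with a median of 0.062, and from -0.31 to 0.29 in filtered air, with a median of -0.012. Its difference was -0.011 (SE 0.0933, limma adjusted p = 0.973; 95% interval -0.21 to 0.19). The ozone mice all lay inside the filtered-air range of Hspa1a. Hspa1b ranged from -0.34 to 0.16 after ozone, with a median of 0.077, and from -0.31 to 0.14 in filtered air, with a median of 0.071. Its difference was -0.030 (SE 0.102, limma adjusted p = 0.932; 95% interval -0.25 to 0.19).

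Both genes varied widely among mice of the same exposure, as did others of the 10. The within-group SD was 0.184 for Hspa1a and 0.203 for Hspa1b, above that of 95.9% and 97.3% of the genes tested, whose median SD was 0.0772. For Hspa8, Hsp90aa1 and Hsph1 it was above that of 94%, 89.6% and 86.2%. The genes tested include those with few reads, where differences are compressed. The same 3 mice were lowest in Hspa1a and Hspa1b: filtered-air mouse 4, ozone mouse 1 and ozone mouse 5. They lay at -0.31, -0.29 and -0.34 in Hspa1b, and the other 9 mice lay at -0.11 or higher. In Hspa1a these 3 lay at -0.31, -0.21 and -0.24, and the other 9 at -0.079 or higher. Their RNA integrity numbers were 8.9, 9.4 and 9.7, which span the lowest and the highest of the series, and their relative depths were 0.928, 0.876 and 1.21. Without filtered-air mouse 4, the difference was -0.079 for Hspa1a and -0.098 for Hspa1b. The sign turned in both genes without ozone mouse 1 (0.032 and 0.029) and without ozone mouse 5 (0.039 and 0.040), and also without filtered-air mouse 6, which is not among the 3 low mice (0.053 and 0.0010). In Hspa1a it turned without filtered-air mouse 3 as well (0.015). None of these differences passed the threshold.

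Over the 12 mice, deviations of Hspa1a and Hspa1b from their group means had a Pearson r of 0.880 (permutation p = 0.00125, adjusted over the 45 pairs of the 10 genes p = 0.0563). Spearman's rho was 0.825 (permutation p = 0.00178, adjusted p = 0.0801). Neither passed after adjustment. Within flow-sort batches 1 and 2, r was 0.879 and 0.888. Leaving out the 2 mice farthest in Hspa1a gave r = 0.890, and leaving out the 3 low mice, picked from their values, gave r = 0.523 over 9 mice. The 2 genes share sequence: of all 50-base windows of the longest Hspa1a transcript, the length of a sequencing read here, 58.8% also occur in Hspa1b. In the other direction the share is 62.3%. These are shares of single windows, whereas the libraries are paired-end, so they are not shares of read pairs that match both genes. The submitters' notes name Salmon 1.5.2, and its settings for reads that match both genes are not given in the sources used here.

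**Figure D2:**
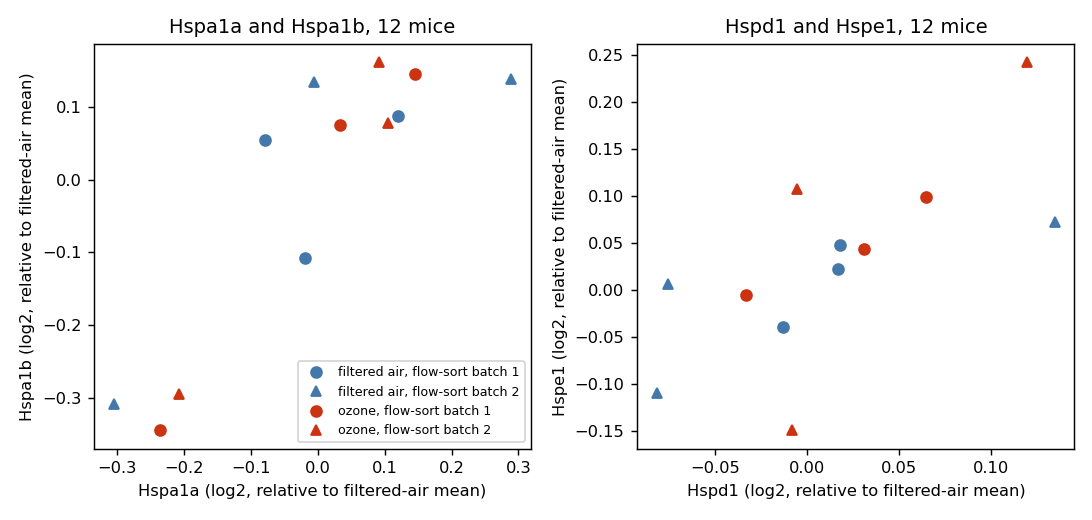
Values of each of the 12 mice for Hspa1a against Hspa1b (left) and Hspd1 against Hspe1 (right), in variance-stabilized log2 units relative to the filtered-air mean; colours and symbols mark exposure and flow-sort batch as in the key. The 3 mice at the lower left of the first panel lie at -0.29 or lower in Hspa1b, and mice of both exposures are among them.

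Hspa8 encodes the constitutive HSP70 (HSC70), which folds new proteins and strips clathrin from vesicles. It ranged from -0.15 to 0.34 after ozone, with a median of 0.21, and from -0.17 to 0.23 in filtered air, with a median of 0.021. In 3 of 6 ozone mice it lay above every filtered-air mouse, while ozone mouse 6, at -0.15, lay near the bottom of both groups. The difference was 0.15 (SE 0.0839, limma adjusted p = 0.429; 95% interval -0.034 to 0.33), with 0.21 in batch 1 and 0.080 in batch 2. Hspa8 (chr9:40800984-40810087, plus strand) also varied widely within groups, with an SD of 0.163, above that of 94% of genes. Of its 50-base windows, 52.7% occur in other annotated transcripts, 45.3% in the predicted gene Gm15459, which differed by 0.11 (limma adjusted p = 0.307).

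Hsph1 encodes HSP110, which releases ADP from HSP70 so that the chaperone can let go of its client and start again. It gave the largest difference of the 10 genes. After ozone it lay at 0.036, 0.25, 0.38, 0.29, 0.16 and 0.29 in mice 1 to 6. In filtered air it lay at -0.081, 0.22, 0.020, -0.12, 0.067 and -0.11. All 6 ozone mice lay above the filtered-air mean and 4 above every filtered-air mouse, with ozone mouse 1 low and filtered-air mouse 2 high for their groups. The difference was 0.23 (SE 0.0672, 95% interval 0.089 to 0.38), larger than that of 96.4% of genes in absolute size. Its unadjusted limma p was 0.0037 and its adjusted p was 0.0702, short of the threshold.

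The size of the Hsph1 difference was similar in both sorts, 0.23 in batch 1 and 0.24 in batch 2. The adjusted p crossed the threshold in 3 of 23 other settings. It was 0.513 in limma after quantile normalization, where the difference was 0.17, and 0.173 and 0.609 in batch 1 and batch 2 alone. Without the batch term, with all 12 mice, it was 0.0464 in limma. The difference stayed at 0.23 there, and that fit takes no account of the batch correction already made in the values. Without filtered-air mouse 2 the difference was 0.28 (limma adjusted p = 0.0239), and without ozone mouse 1 it was 0.28 (limma adjusted p = 0.0264). In the other 10 fits without 1 mouse it stayed short of the threshold. Hsph1 (chr5:149614287-149636376, minus strand) shares none of its 50-base windows with another annotated transcript, so its reads can be assigned without its relatives.

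Dnajb1 encodes the J-domain protein HSP40, which delivers clients to HSP70 and, with it, shuts HSF1 off again. It ranged from -0.10 to 0.18 after ozone, with a median of 0.024, and from -0.10 to 0.14 in filtered air, with a median of -0.013. The ranges nearly coincided, and 3 of 6 ozone mice lay above the filtered-air mean. The difference was 0.023 (SE 0.0572, limma adjusted p = 0.895; 95% interval -0.099 to 0.15) for Dnajb1 (chr8:83608193-83612653, plus strand). Its deviations over mice had the second highest correlation among the 10 genes with those of Hspa8, its HSP70 partner (r = 0.740, permutation p = 0.0117, adjusted p = 0.176; rho = 0.692, permutation p = 0.0187, adjusted p = 0.281; r = 0.718 without the 2 farthest mice; 0.907 and 0.671 in batches 1 and 2).

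Hsp90aa1 encodes the inducible cytosolic HSP90, which matures kinases and steroid receptors and also restrains HSF1. It ranged from -0.058 to 0.17 after ozone, with a median of 0.12, and from -0.15 to 0.21 in filtered air, with a median of -0.062. No ozone mouse lay outside the filtered-air range, because filtered-air mice 2 and 5, both at 0.21, lay above all others. The difference was 0.076 (SE 0.0725, limma adjusted p = 0.682; 95% interval -0.079 to 0.23). It ranged from 0.042 without filtered-air mouse 1 to 0.12 without filtered-air mouse 2, and was 0.049 with RNA integrity as a covariate and 0.046 after quantile normalization. Hsp90aa1 lies at chr12:110690605-110702728 on the minus strand. Of its windows 58.5% occur in other annotated transcripts, 51.5% in the predicted gene Gm12346, which differed by -0.0019.

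Hspb1, the small heat shock protein HSP25 of the mouse, holds unfolded proteins without using ATP and protects actin filaments. It lay at -0.14, -0.17, -0.13, -0.016, -0.058 and -0.060 in ozone mice 1 to 6. In filtered-air mice 1 to 6 it lay at -0.086, -0.015, 0.062, -0.027, -0.018 and 0.085. All 6 ozone mice lay below the filtered-air mean and 3 below every filtered-air mouse, with filtered-air mouse 1 the lowest of its group. The difference was -0.10 (SE 0.0410, 95% interval -0.18 to -0.0075), with an unadjusted limma p of 0.0353 and an adjusted p of 0.250. It was -0.067 in batch 1 and -0.12 in batch 2. Hspb1 (chr5:135887919-135889563, plus strand) had a small within-group SD, 0.0610, and 51.6% of its windows occur in the pseudogene Hsp25-ps1, which was not among the genes tested.

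Hspd1 and Hspe1 encode HSP60 and its lid HSP10, which together form the chaperonin of mitochondria. The genes lie head to head on chromosome 1 (chr1:55077835-55088243 on the minus strand and chr1:55088132-55091307 on the plus strand), overlap by 112 bases in the annotation and share the heat shock site printed above. Hspd1 ranged from -0.033 to 0.12 after ozone, with a median of 0.013, and from -0.081 to 0.13 in filtered air, with a median of 0.0019. Its difference was 0.028 (SE 0.0437, limma adjusted p = 0.822; 95% interval -0.065 to 0.12). Leaving out 1 mouse moved it between 0.0078 (without ozone mouse 1) and 0.058 (without filtered-air mouse 2). No ozone mouse of Hspd1 lay outside the filtered-air range.

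Hspe1 ranged from -0.15 to 0.24 after ozone, with a median of 0.072, and from -0.11 to 0.072 in filtered air, with a median of 0.014. Ozone mice reached both above and below the filtered-air range, with 3 above it and 1 below it. Its difference was 0.056 (SE 0.0575, limma adjusted p = 0.706; 95% interval -0.067 to 0.18). It was 0.015 without ozone mouse 1 and 0.10 without ozone mouse 6, the extremes of the fits that left out 1 mouse. Over the 12 mice the deviations of Hspd1 and Hspe1 had r = 0.676 (permutation p = 0.00815, adjusted p = 0.176) and rho = 0.769 (permutation p = 0.00626, adjusted p = 0.141), and r was 0.505 without the 2 mice farthest in Hspd1, 0.915 in batch 1 and 0.648 in batch 2. In Hspd1, 44.8% of windows occur elsewhere, against 8.2% in Hspe1.

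**Figure D3:**
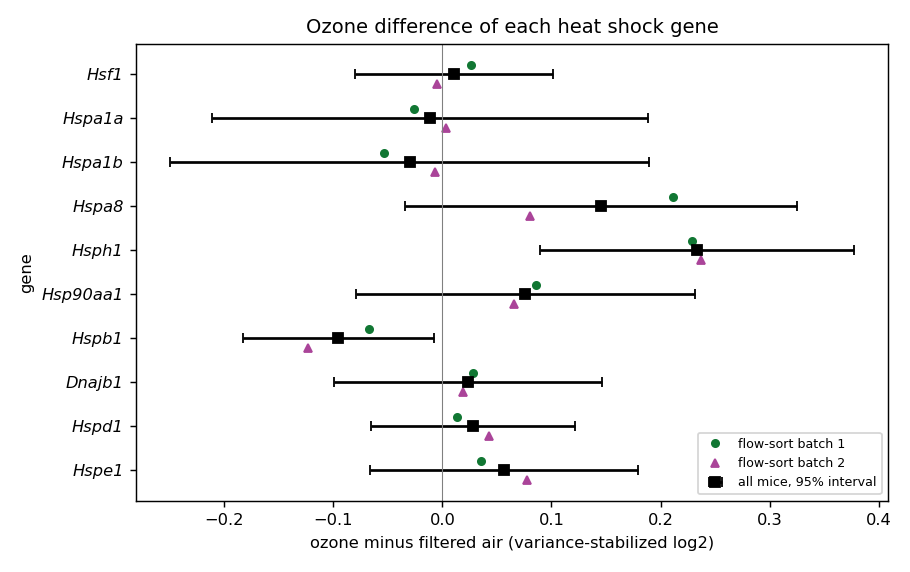
Ozone minus filtered air for each gene in variance-stabilized log2 units (horizontal axis); black squares are limma estimates over 12 mice with 95% intervals, and green circles and purple triangles are the differences in flow-sort batches 1 and 2. The interval lies above 0 for Hsph1 and below 0 for Hspb1 and includes 0 for the other 8 genes.

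The flow-sort batches were compared within the 10 genes. In 8 of 10 the difference had the same sign in both batches, and the exceptions, Hsf1 and Hspa1a, had differences near 0 in each. In limma's test of the interaction of ozone with batch, 0 of 10 genes had an adjusted p under 0.05, as did 0% of all genes. At an unadjusted p under 0.05 there were also 0 of 10, against 2.6% of all genes. The largest change between batches was that of Hspa8, -0.13 (unadjusted p = 0.458, limma adjusted p = 1.00).

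From mouse to mouse, correlations among the 10 genes had both signs. Of their 45 pairs, 26 had a positive and 19 a negative correlation of deviations over the 12 mice, with a median r of 0.124. Before adjustment 8 pairs had a permutation p under 0.05 for Pearson's r, and 0 did after it. The same counts were not computed over pairs of all genes, so whether the 10 genes move together more than others was not tested. At the negative end stood Hsf1 with Hspe1 (r = -0.645, permutation p = 0.0271, adjusted p = 0.244; rho = -0.566, permutation p = 0.0726, adjusted p = 0.545; r = -0.502 without the 2 farthest mice; -0.365 and -0.913 in batches 1 and 2). Hspa1b and Dnajb1 had r = 0.698 (permutation p = 0.0263, adjusted p = 0.244; rho = 0.706, permutation p = 0.0255, adjusted p = 0.287; r = 0.527 without the 2 farthest mice; 0.949 and 0.573 in batches 1 and 2). None of 20 correlations of the 10 genes with RNA integrity number or relative depth passed the same adjusted permutation test. The highest was that of Hsp90aa1 with RNA integrity (r = 0.638, permutation p = 0.0547, adjusted p = 0.821; rho = 0.667, permutation p = 0.0406, adjusted p = 0.799; r = 0.483 without the 2 farthest mice).

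**Figure D4:**
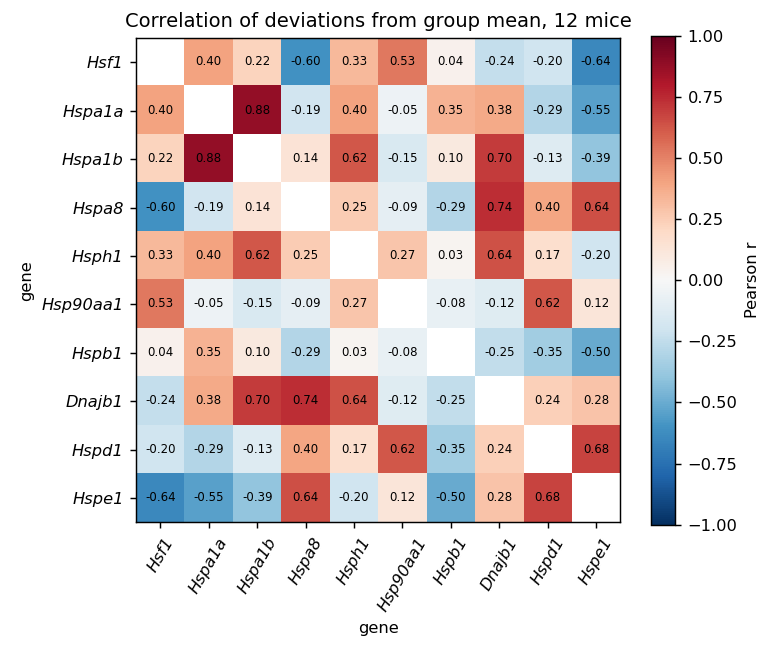
Pearson r between the 10 genes over 12 mice, computed on deviations from the mean of each mouse's exposure group; red is positive and blue negative, with r printed in each cell. The highest value, 0.88, joins Hspa1a and Hspa1b, and the lowest, -0.64, joins Hsf1 and Hspe1.

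The genes outside the 10 whose pattern over the 12 mice was nearest were listed with r of deviations, as a description. Over so few mice and so many genes, high values of r are easily reached. The nearest gene was Fkbp4 for Hspd1 (r = 0.937), a cochaperone of HSP90. It was the only gene of the chaperone lists in the 30 places, 3 for each of the 10 genes. Those lists hold 96 of the 19633 genes tested. Rexo4 was nearest to Hspa1a (r = 0.935) and also among the nearest 3 of Hspa1b (r = 0.920), whose nearest was Ncaph2 (r = 0.928). Hspa1b itself ranked 16 among all genes for likeness to Hspa1a. Oas1c was nearest to Hsf1 (r = 0.962), Fzd5 to Hspa8 (r = 0.972), Nat8f1 to Hsph1 (r = 0.951) and Zfp11 to Hsp90aa1 (r = 0.929). Urb1 was nearest to Hspb1 (r = 0.928), Ccar1 to Dnajb1 (r = 0.946) and Pgrmc1 to Hspe1 (r = 0.982).

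The wider chaperone network gave 2 calls. Of 98 other listed genes 96 were tested, and 1 rose and 1 fell in limma, 2.08% of them against 4.25% of all genes. The median difference of the 96 was 0.010. Hspb3 and Hspb9, small heat shock proteins, were the 2 not tested, because too few mice had reads.

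The gene that fell was Dnajb2, a J-domain protein that hands ubiquitin-tagged clients to the proteasome. It ranged from -0.39 to -0.070 after ozone, with a median of -0.17, and from -0.090 to 0.055 in filtered air, with a median of 0.022. The difference was -0.21 (SE 0.0533, limma adjusted p = 0.0397), at -0.21 in each batch, and the groups overlapped slightly. The call was lost in 9 of 12 fits that left out 1 mouse, and held without filtered-air mouse 2 and without ozone mice 4 and 6. Without ozone mouse 5 the difference was -0.17 (limma adjusted p = 0.0760). With all 12 mice the call was lost with the variance trend (limma adjusted p = 0.0619), with RNA integrity as a covariate (0.0564) and after quantile normalization (0.140), and it was lost in each batch alone (0.350 and 0.413). In the same list of 13 J-domain genes, Dnaja2 differed by -0.10 (adjusted p = 0.112) and Dnajb4 by -0.15 (adjusted p = 0.109). Of the 13 differences 9 lay below 0 and 4 above, with a median of -0.021.

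The gene that rose was Sdf2l1, a partner of the HSP70 of the endoplasmic reticulum. It ranged from 0.22 to 0.36 after ozone, with a median of 0.29, and from -0.17 to 0.11 in filtered air, with a median of 0.025, without overlap. The difference was 0.30 (SE 0.0519, limma adjusted p = 0.00513). The call was lost after quantile normalization (0.25, limma adjusted p = 0.0941) and with 3 mice a group in batch 1 alone (0.33, adjusted p = 0.0518) and batch 2 alone (0.27, adjusted p = 0.38). All 13 listed chaperones of that compartment had a difference above 0, with a median of 0.099, and 1 of the 13 was called (7.69%, against 4.25% of all genes). Over all genes, 9423 of 19633 had a difference above 0. Hspa5, its HSP70 (BiP), differed by 0.18 (limma adjusted p = 0.142), and Hsp90b1, its HSP90 (GRP94), by 0.13 (adjusted p = 0.126).

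The other lists held no call. Among 16 cytosolic HSP90 genes and cochaperones, 12 differences lay above 0 with a median of 0.028, and Ppp5c, a phosphatase bound to HSP90, had the smallest p (0.14, limma adjusted p = 0.0915), with no overlap of the groups. Of 7 HSF relatives and regulators, Sirt1, a deacetylase that prolongs HSF1 binding to DNA, had the smallest p (-0.13, limma adjusted p = 0.218), and Hsf2 differed by -0.025. Of 7 nucleotide exchange and BAG genes, Bag3, an HSF1 target that routes clients to autophagy, had the smallest p (-0.11, limma adjusted p = 0.261).

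The smallest p-values in the remaining lists were further from the threshold. Afg3l2, a protease of the inner membrane, led the 13 mitochondrial chaperones and proteases (0.077, limma adjusted p = 0.304; median of the list 0.012). Pfdn4, a prefoldin subunit, led the 14 genes of the CCT chaperonin and prefoldin (-0.064, adjusted p = 0.467; median -0.0044). Hspb7, with reads in 6 of 12 mice, led the 6 tested small heat shock proteins (0.050, adjusted p = 0.610; median -0.014). Hspa14 led the 7 other HSP70 and HSP110 genes (0.033, adjusted p = 0.726; median -0.011).

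**Figure D5:**
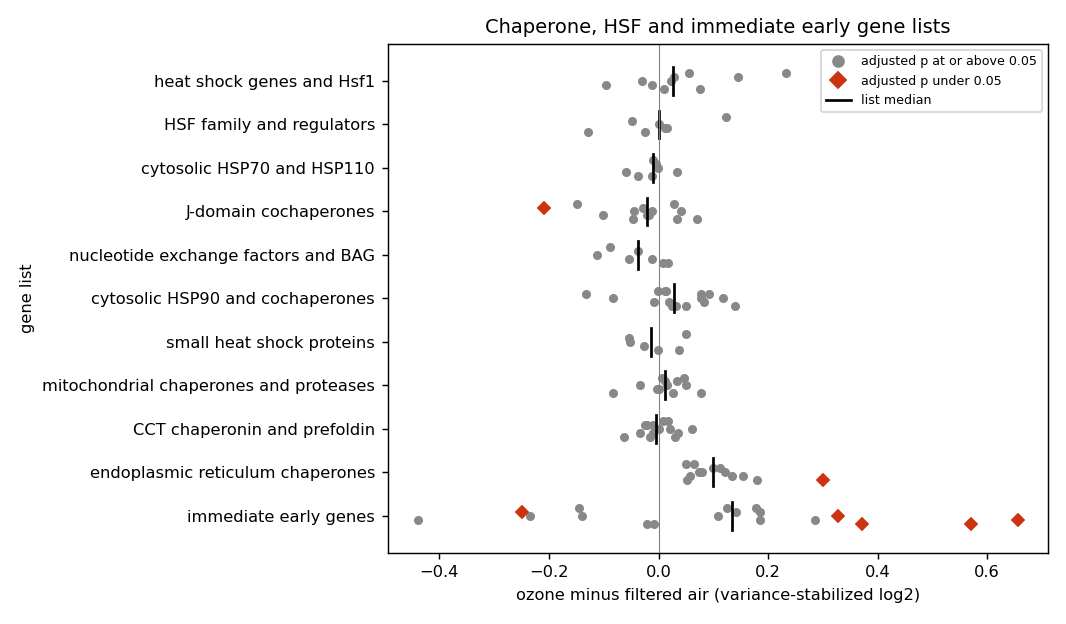
Ozone minus filtered air in variance-stabilized log2 units (horizontal axis) for each tested gene of the heat shock genes and 10 further lists (vertical axis); red diamonds have an adjusted p under 0.05, grey circles do not, and black bars are list medians. Calls outside the immediate early genes are Dnajb2, at -0.21, and Sdf2l1, at 0.30.

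Immediate early genes, which like inducible HSP70 respond to stress and to the handling of tissue, were read beside the heat shock genes. Of 18, 5 were called in limma, 4 higher and 1 lower, or 27.8% against 4.25% of all genes. Fos rose by 0.57 (adjusted p = 0.0136), Dusp1 by 0.66 (adjusted p = 0.0206), Atf3 by 0.37 (adjusted p = 0.00525) and Zfp36 by 0.33 (adjusted p = 0.0354), and the groups did not overlap in these 4. In batches 1 and 2 the differences were 0.31 and 0.83 for Fos, 0.62 and 0.69 for Dusp1, 0.31 and 0.43 for Atf3, and 0.11 and 0.54 for Zfp36; as given above, 0% of all genes passed the adjusted test of that interaction. Ier2 fell by 0.25 on the log2 scale (adjusted p = 0.0262). The mean of the list ran from 0.0062 to 0.20 in ozone mice and from -0.13 to 0.10 in filtered-air mice. In the 3 mice with low Hspa1a and Hspa1b it was -0.10 in filtered-air mouse 4, 0.12 in ozone mouse 1 and 0.092 in ozone mouse 5. Whether tissue handling bears on either list was not tested.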

How the data were processed

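RNA of alveolar macrophages from 12 mice was sequenced as stranded, paired-end libraries, per the labels' protocols. The deposited table gives log2 values that the authors had variance-stabilized and batch-corrected, per the file's name; in the values each gene is centred on the filtered-air mean and both flow-sort batches have equal means. The submitters' processing notes name cutadapt, STAR 2.7.7a, Salmon 1.5.2, DESeq2 1.26.0, R 3.6.0, limma 3.42.2 and mm10. The annotation is not given in the sources used here.

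All 12 columns matched a sample title. Mice sharing the lowest value of their batch for a gene were taken to have no reads; genes with at least 6 of 12 mice above it were tested, which left 19633. Differences were fitted with limma 3.58.1 in R 4.3.3 on group and flow-sort batch, two-sided, with Benjamini-Hochberg adjustment and a threshold of 0.05. The fit was tested on simulated data. Correlations over mice used 100000 permutations within groups. Gene positions and 50-base windows come from GENCODE M21. Depth was taken as the inverse square of the first step above the minimum, since the second step was 1.41 times the first in every mouse. The animals of a group are separate mice by their labels. The 10 genes, the gene lists and the tests were chosen with earlier results of these data known. All 10 genes are described, and of each chaperone, HSF and immediate early list the called genes or else the gene with the smallest p, and for each of the 10 genes the nearest by correlation. Dnaja2, Dnajb4, Hspa5, Hsp90b1, Hsf2 and the called cell type markers fall outside this rule and were added after their values were seen. The alternatives covered the filter, the variance model, covariates, normalization, pairing, single batches and leaving out each mouse.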

Additional observations from a re-analysis of the deposited data

How the results depend on the processing

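Across 23 other settings the 10 heat shock genes gave 230 differences, of which 216 kept their sign and 3 passed the threshold, all for Hsph1. Settings that changed only the filter, the variance model, the batch term or the replicate block leave each difference as it was. No sign could turn in those, so the count of kept signs overstates how far the signs were tried. The count of called genes was 1 without the batch term, where Hsph1 had a limma adjusted p of 0.0464. It ranged from 0 to 1 without single mice. The median difference ranged from 0.0071 (without filtered-air mouse 4) to 0.057 (without filtered-air mouse 2) in those fits. Of the wider network, 1 gene was called with the variance trend and 1 with RNA integrity as a covariate, and 0 after quantile normalization, in batch 1 alone and in batch 2 alone; without single mice 1 to 2 were called. Single batches hold 3 mice a group. Signs changed for differences near 0: in batch 2 alone Hsf1 was -0.0049 and Hspa1a 0.0032, and without single mice Hsf1 ranged from -0.0079 to 0.033, Hspa1a from -0.079 to 0.053, Hspa1b from -0.098 to 0.040 and Dnajb1 from -0.012 to 0.056. The cause was not tested. Same-numbered mice are different animals and were not paired in the main fit. Their deviations correlated from -0.0026 to 0.28, above 0.1 in 4 of 6 pairs, and 6 of 12 mice correlated best with their own number. Whether same-numbered mice share a factor was not tested. With the replicate block 0 of the 10 genes and 2 network genes were called, and Hsph1 had a limma adjusted p of 0.0662. That of Hspa8 was 0.164 with the block and 0.429 in the main fit.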
